A study of Mus musculus with 4 samples.

Results

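The cadherins and protocadherins of mouse cortical neuron and astrocyte cultures are described here. The members are the probe sets (groups of oligonucleotides that read 1 transcript) whose single platform gene symbol is Cdh followed by a number or starts with Pcdh. There were 101 such probe sets for 56 genes, of 34945 probe sets with 1 symbol for 18193 genes on the array. The rule reads symbols only.

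The study compared 2 arrays of cortical neurons with 2 arrays of cortical astrocytes, all from C57BL6 mice without any labelled genetic change. The neurons came from fetuses at embryonic day 16. Soon after plating they were moved to basal medium Eagle with glucose at 19.4 mM, glutamine at 4 mM and fetal calf serum at 1%, to which progesterone, putrescine, transferrin, insulin, selenite and antibiotics were added. The astrocytes came from newborn animals and stayed in the plating form of this medium, with glucose at 33 mM, glutamine at 2 mM, fetal calf serum at 10% and antibiotics. The series description gives 7 days in culture for neurons and 20 days for astrocytes, whereas the protocol gives 7 to 8 days for all assays. Cell type cannot be told apart from donor age, medium and culture time. The titles call the arrays biological replicates, and nothing says how many animals each culture pooled, so p-values measure only the spread between these samples. In such cultures, fewer cells of a type and less RNA per cell cannot be told apart.

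Cadherins are calcium-dependent adhesion proteins of the cell surface. Classical cadherins, of type I and type II, bind like molecules on the next cell and couple through catenins to actin. Protocadherins have a related outer part but bind no catenins through their tails. The non-clustered ones include the delta1 and delta2 groups, some genes of which sort and guide growing axons or act at synapses. The clustered alpha, beta and gamma protocadherins lie side by side on 1 chromosome, and each neuron uses its own set of their promoters, which gives it a surface identity.

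Values are the authors' MAS5 signals, a linear measure of fluorescence brightness per probe set, with no unit. Signals of different probe sets cannot be ranked against each other, so only the same probe set, or a sum over the same probe sets, is compared across arrays. Where a gene is said to make up most or much of a sum, this describes signal and not the amount of transcript. The highest signal of 27 Bacillus subtilis control probe sets served as background, at 21 and 23 for the neuron arrays and at 17 and 15 for the astrocyte arrays. Replicates correlated at 0.980 (neurons) and 0.983 (astrocytes) across probe sets, which are no independent replicates, against 0.669 to 0.682 between groups. The labels matched their defining markers: Tubb3, the neuronal tubulin, had 2875 and 3021 on neuron arrays and 68 and 63 on astrocyte arrays, and Aqp4, the astrocyte water channel, had 551 and 701 against 4668 and 3859. All 8 neuron markers were higher in neurons, with summed signals of 27841 and 27519 against 3075 and 2892. On the astrocyte arrays Map2, at 1487 and 1269, and Stmn2, at 1465 and 1485, lay far above background. Snap25 and Dcx were not above it there. Of 8 astrocyte markers, 5 passed with more signal in astrocytes and 2 with more in neurons. The summed signals of all 8 were 8210 and 9478 in neurons and 16276 and 16258 in astrocytes. Aqp4 was above background on the neuron arrays too, as were Slc1a3, at 1138 and 1258, and Gja1, at 1623 and 1715. Gfap, at 2 and 109, was above it on 1 neuron array only.

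Most of the tested family was higher in neurons. Of the 56 genes, 33 had a probe set bright enough to be tested, of which 21 passed with more signal in neurons, 4 passed with more signal in astrocytes and 8 did not pass (limma, adjusted p under 0.05). The corresponding shares of all 12040 genes tested were 31.0% and 31.1%, or 62.2% in either direction. On the log2 scale, the median difference of neurons minus astrocytes was 0.02 over those genes and 1.33 over the 33 members. By class, 15 of 22 tested protocadherins and 6 of 11 tested cadherins were among the 21. An excess of at least 4-fold in neurons was called for 14 members, and for 8.18% of all genes. The groups did not overlap in 28 of the 33 members, where 81.9% of all genes did the same. A probe set could pass the brightness filter through 1 group alone, so the 33 are not a sample of all members. Read as probe sets, 58 of 101 were tested, with 34 called for neurons and 7 for astrocytes (29.4% and 27.7% of all 25019 probe sets).

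**Figure D1:**
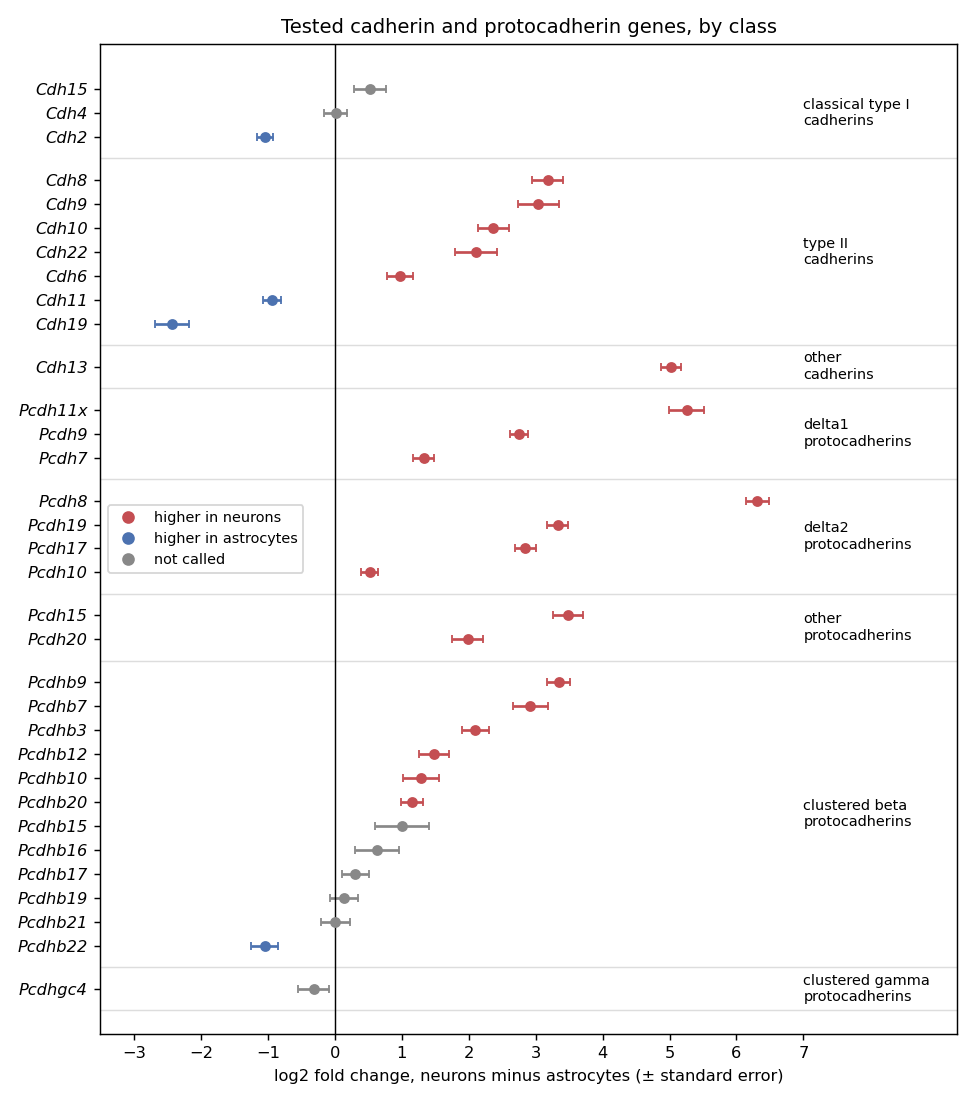
Log2 fold change (neurons minus astrocytes) with its standard error for the 33 tested genes, grouped by class, with 2 arrays per group. Red points are higher in neurons, blue points higher in astrocytes and grey points did not pass; all 9 tested non-clustered protocadherins lie to the right of 0.

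Of 3 tested classical type I cadherins, 1 was higher in astrocytes and 2 did not pass. Cdh2, N-cadherin, the main classical cadherin of neural tissue, had signals of 2016 and 2142 in neurons and 4702 and 3920 in astrocytes. Both cultures lay far above background, and both astrocyte arrays were above both neuron arrays. Its log2 fold change was -1.04 ± 0.12 (SE, n = 2 per group; adjusted p = 0.000107), a 2.06-fold excess in astrocytes. A second Cdh2 probe set, at 474 and 549 against 2386 and 2317, gave -2.18.

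Cdh4, R-cadherin, had 438 and 321 in neurons and 368 and 375 in astrocytes, with overlapping groups and a log2 fold change of 0.01 ± 0.17 (adjusted p = 0.953). Its sign turned negative without neurons replicate 1, with median centring and with its probe sets averaged. A second tested Cdh4 probe set, at 334 and 239 against 344 and 408, had no overlap. It did not pass either (log2 fold change -0.39, adjusted p = 0.103). Cdh15, M-cadherin of muscle, had 44 and 57 against 35 and 27 and did not pass (adjusted p = 0.0892). The epithelial Cdh1 (E-cadherin) lay between 3 and 10 on the 4 arrays, and both probe sets of Cdh3 (P-cadherin) between 3 and 16. These probe sets were not above background on any array.

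Of the 7 tested type II cadherins, which differ from type I in the adhesive contact of their outermost domain, 5 were higher in neurons and 2 in astrocytes. Cdh8 had 139 and 151 in neurons and 7 and 3 in astrocytes, where it was not above background. It was at least 9.07-fold higher in neurons (signals against the background; log2 fold change 3.18 ± 0.23, adjusted p = 8.02e-06). On its second tested probe set, at 68 and 60 against 5 and 8, Cdh8 was at least 4-fold higher. Cdh9, which acts in the building of specific hippocampal synapses, had 155 and 116 against 1 and 11 and was at least 8.40-fold higher (adjusted p = 5.26e-05). Cdh10 had 432 and 419 against 97 and 53, above background in both cultures, a 5.17-fold excess in neurons (adjusted p = 4.80e-05), and its second tested probe set gave a log2 fold change of 2.35 beside 2.37. On the dimmest tested one, at 57 and 53 against 8 and 1, it was not above background in astrocytes and at least 3.44-fold higher in neurons.

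Cdh22 had 219 and 140 in neurons and 20 and 46 in astrocytes (log2 fold change 2.11 ± 0.32, adjusted p = 0.000539), and leaving out neurons replicate 1 ended the call (adjusted p = 0.0618). Cdh6 had 172 and 235 against 93 and 99 (log2 fold change 0.98 ± 0.19, adjusted p = 0.00256). That call was lost without astrocytes replicate 1 (adjusted p = 0.0727) or 2 (0.0629), and a dimmer Cdh6 probe set did not pass (0.26).

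The type II cadherins higher in astrocytes were Cdh19 and Cdh11. Cdh19, known from the glial precursors of peripheral nerve, had 2 and 3 in neurons, not above background, and 76 and 62 in astrocytes. It was at least 3.12-fold higher in astrocytes (log2 fold change -2.44 ± 0.25, adjusted p = 6.11e-05). Cdh11, a cadherin of mesenchymal cells that is also found in brain, had 454 and 466 against 974 and 811, a 1.91-fold excess in astrocytes (adjusted p = 0.000438). A second Cdh11 probe set, at 146 and 135 against 143 and 109, did not pass, and the average of both was -0.39 (log2, adjusted p = 0.0375).

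Markers of fibroblasts and meninges were read on the same arrays, and 5 of 7 were higher in astrocytes and 1 in neurons. Their summed signal was 526 and 538 in neurons and 4010 and 4228 in astrocytes. Most of the astrocyte sums was Islr, at 29 and 32 against 2465 and 2689. Endothelial and mural markers summed to 186 and 505 against 5237 and 5367, with 2 of 4 tested higher in astrocytes, the mural genes Acta2 and Pdgfrb. Most of the astrocyte sums was Acta2, at 87 and 361 against 4544 and 4791. The mural gene Rgs5, at 22 and 27 against 36 and 32, did not pass. Of the endothelial genes, Pecam1 was not above background on any array, while Kdr, at 29 and 42 against 50 and 42, was above it on all 4 and did not pass. Microglia markers summed to 99 and 152 against 662 and 702, with 3 of 4 tested higher in astrocytes. Progenitor and radial glia markers summed to 10184 and 9842 against 13289 and 13135, with 3 of 5 tested higher in astrocytes and 1 in neurons. Most of each sum was Fabp7, at 8615 and 8404 against 7941 and 8150, which did not pass. Of 2 tested ependymal and epithelial markers, Foxj1, a ciliated cell factor, was higher in astrocytes (35 and 24 against 410 and 407) and Epcam in neurons. The part of such cells in the values of Cdh2, Cdh11 and Cdh19 was not tested. Cdh5, VE-cadherin of endothelium, was too dim to be tested, with 17 and 15 in neurons and 29 and 29 in astrocytes on its brighter probe set.

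Outside both types, Cdh13 was the only cadherin bright enough to be tested. It encodes T-cadherin, which has no cytoplasmic tail and is held in the membrane by a lipid anchor. It had 1415 and 1290 in neurons and 30 and 29 in astrocytes, with a wide gap between the groups. The excess in neurons was 32.5-fold (log2 fold change 5.02 ± 0.15, adjusted p = 1.37e-07), and its second probe set gave 4.65. On the dimmest tested one, at 139 and 129 against 16 and 2, it was not above background in astrocytes and at least 8.39-fold higher in neurons. Cdh16, of kidney, Cdh17, of liver and intestine, Cdh23 and Cdh26 were not tested.

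**Figure D2:**
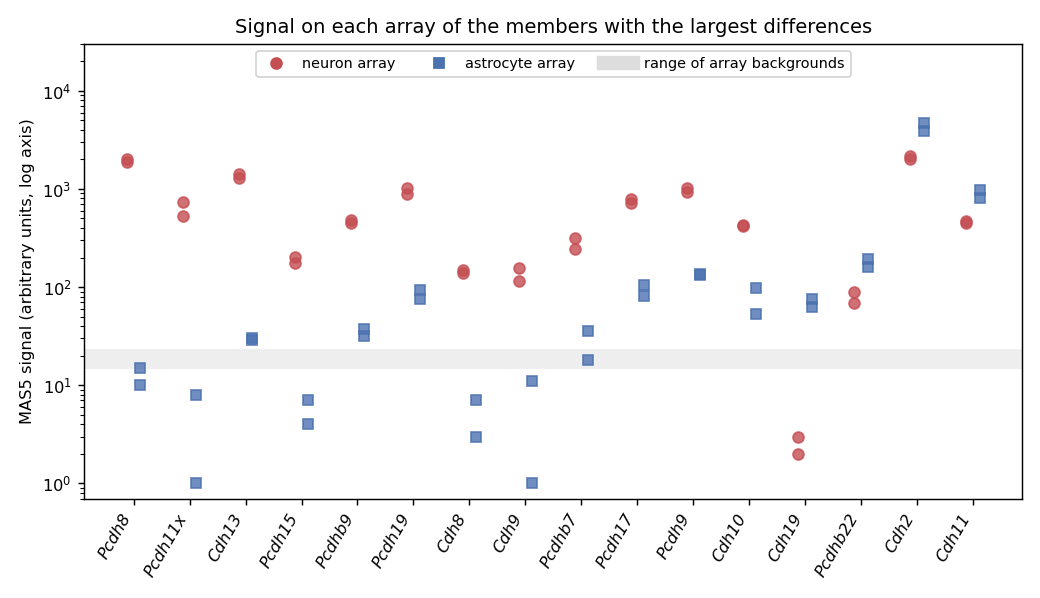
MAS5 signal on each array (log axis, arbitrary units) of the 12 members with the largest excess in neurons and the 4 higher in astrocytes, ordered by the size of the log2 fold change within each direction. Circles are the neuron arrays, squares the astrocyte arrays and the grey band spans the array backgrounds of 15 to 23; the groups overlap for none of these 16 genes, as the rule that chose them required.

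Read by the brightest probe set, the 9 tested non-clustered protocadherins were higher in neurons, although other probe sets of Pcdh7 and Pcdh10 went the other way. All 7 tested delta1 and delta2 genes passed in that direction, with a median log2 fold change of 2.85, and so did Pcdh15 and Pcdh20. Pcdh8, or arcadlin, a delta2 protocadherin that is induced by synaptic activity and drives N-cadherin from the synaptic surface, had 1893 and 2042 in neurons. On the astrocyte arrays it had 15 and 10, not above background. It was at least 123-fold higher in neurons (log2 fold change 6.31 ± 0.17, adjusted p = 1.10e-07). This probe set may match several transcripts; the other Pcdh8 probe set, at 1083 and 1093 against 15 and 15, was at least 68.1-fold higher in neurons.

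Pcdh19, an X-linked gene of epilepsy whose protein binds N-cadherin, had 1021 and 893 in neurons and 75 and 93 in astrocytes. It stayed above background in astrocytes and was 10.1-fold higher in neurons (adjusted p = 8.00e-07), with 3.09 and 1.39 as the log2 fold changes of its other probe sets. Pcdh17, which sits at synapses and on bundled axons, had 781 and 719 against 106 and 82, a 7.20-fold excess (adjusted p = 1.96e-06). Its other probe set, at 493 and 324 against 67 and 61, gave a 5.40-fold excess. Pcdh19 and Pcdh17 were thus lower on the astrocyte arrays without falling to background. The neuron markers Map2, at 1487 and 1269, and Stmn2, at 1465 and 1485, also lay above background on those arrays. The part of neurons in the astrocyte values of these and other members was not tested.

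Pcdh11x, the X-linked delta1 gene, had 531 and 730 in neurons and 8 and 1 in astrocytes. It was not above background in astrocytes and was at least 39.0-fold higher in neurons (log2 fold change 5.25 ± 0.26, adjusted p = 9.07e-07), and its second probe set, at 207 and 334 against 2 and 2, at least 16.5-fold. Pcdh9 had 1015 and 926 against 133 and 135, a 6.70-fold excess (adjusted p = 9.07e-07). Of its other probe sets, 1 gave 2.30 and 1, at 41 and 44 against 28 and 30, did not pass.

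Pcdh15 forms, with Cdh23, the tip links of inner ear hair cells. It had 175 and 204 in neurons and 7 and 4 in astrocytes, at least 11.8-fold higher in neurons (adjusted p = 3.64e-06). On its second tested probe set, at 56 and 78 against 1 and 11, Pcdh15 was at least 4.14-fold higher in neurons. The probe sets of its partner Cdh23 lay between 2 and 29, with 1 probe set above background on 1 astrocyte array only. Pcdh15 is also expressed by oligodendrocyte precursors. Among 6 tested markers of the oligodendrocyte lineage, 4 had more signal in neurons and 1 in astrocytes, and Mog was not above background on any array. The summed signals were 5322 and 4413 against 4200 and 4597. Much of each sum was Olig1, the 1 marker higher in astrocytes, at 2899 and 1895 against 3500 and 3997. Pdgfra, which defines the precursors, had 1177 and 1302 in neurons and 19 and 21 in astrocytes. The part of such cells in the Pcdh15 value was not tested.

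Of the tested genes, 4 lie on chromosome 14. In the RefSeq order of the members, which leaves out all other genes, Pcdh8, Pcdh17, Pcdh20 and Pcdh9 follow each other there. All 4 were higher in neurons, as was every tested non-clustered protocadherin read by its brightest probe set, so the shared direction is not particular to this chromosome. Pcdh20 had 88 and 92 in neurons and 11 and 16 in astrocytes (log2 fold change 1.99 ± 0.23, adjusted p = 0.000116). The promoters of the 4 genes, shown because they are next to each other in that order and moved the same way, come from RefSeq (build GRCm38.p6). Each runs 5′ to 3′ on the gene's strand from 250 bases before to 50 bases after the start, with each CG dinucleotide in capitals. The windows are chr14:79771263-79771562 (minus strand) for Pcdh8, chr14:84443313-84443612 (plus) for Pcdh17, chr14:88471347-88471646 (minus) for Pcdh20 and chr14:93890620-93890919 (minus) for Pcdh9.
Pcdh8: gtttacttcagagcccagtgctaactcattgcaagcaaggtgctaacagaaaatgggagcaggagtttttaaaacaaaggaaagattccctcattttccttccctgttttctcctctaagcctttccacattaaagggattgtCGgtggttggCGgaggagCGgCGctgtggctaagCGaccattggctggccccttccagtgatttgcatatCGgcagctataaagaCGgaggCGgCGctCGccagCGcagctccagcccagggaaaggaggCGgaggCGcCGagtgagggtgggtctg
Pcdh17: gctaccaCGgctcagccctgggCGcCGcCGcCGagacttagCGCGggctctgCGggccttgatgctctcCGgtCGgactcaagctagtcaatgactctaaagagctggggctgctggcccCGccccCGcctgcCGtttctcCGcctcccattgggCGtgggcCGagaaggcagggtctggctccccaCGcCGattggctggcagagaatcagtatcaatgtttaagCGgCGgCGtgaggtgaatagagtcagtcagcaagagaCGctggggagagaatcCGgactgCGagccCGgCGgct
Pcdh20: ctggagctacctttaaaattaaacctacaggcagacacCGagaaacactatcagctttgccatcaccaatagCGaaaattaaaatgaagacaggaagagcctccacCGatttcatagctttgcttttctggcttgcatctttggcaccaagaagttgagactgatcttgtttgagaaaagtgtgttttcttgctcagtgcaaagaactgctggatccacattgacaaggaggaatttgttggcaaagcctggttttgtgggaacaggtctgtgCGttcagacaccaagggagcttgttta
Pcdh9: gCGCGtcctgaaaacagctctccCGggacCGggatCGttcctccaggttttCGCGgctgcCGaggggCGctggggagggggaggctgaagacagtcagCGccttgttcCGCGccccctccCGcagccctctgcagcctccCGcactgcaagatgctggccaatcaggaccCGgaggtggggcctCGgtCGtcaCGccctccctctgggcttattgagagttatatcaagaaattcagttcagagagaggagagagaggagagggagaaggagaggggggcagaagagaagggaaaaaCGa

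The ratio of observed to expected CG dinucleotides, given the C and G content, was 0.822 for Pcdh17, 0.664 for Pcdh9, 0.641 for Pcdh8 and 0.281 for Pcdh20. The median over all 32851 RefSeq promoters of this length was 0.384. So 3 of these genes have a CG-rich start and Pcdh20 does not, although all 4 were higher in neurons. Promoters of 20 member genes outside chromosome 18 were in the table, 23 windows in all, with a median of 0.540. The word CAGGTG (either strand), an E-box bound by Zeb and Snai factors, was in 5 of 23 windows, or 21.7%, against 20.2% of all promoters. The word CAGATG (either strand), an E-box of proneural factors, was in 1 of 23, or 4.35%, against 17.2%. Of these matches, 3 of the 5 and the single one lie in windows of Cdh7, which was not tested. In the 14 windows of 13 members higher in neurons, CAGGTG was found in 2 and CAGATG in 0. The 2 Pcdh9 windows among them overlap, and no member higher in astrocytes had a window to set beside them. The motifs do not overlap, and a match or its absence is a description of these letters only.

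Pcdh7 and Pcdh10 gave different answers by probe set. Pcdh7, a delta1 gene, had 325 and 322 in neurons and 131 and 112 in astrocytes on its brightest probe set (log2 fold change 1.33 ± 0.16, adjusted p = 0.000129). On another probe set it had 7 and 7 in neurons, not above background, and 36 and 34 in astrocytes, at least 1.59-fold higher there (adjusted p = 0.00267). Another one, too dim to be tested, had 34 and 49 in neurons and 16 and 13 in astrocytes, not above background. Both tested probe sets passed, in opposite directions, and the neuron call is given for the brightest one only. Their average of 0.02 (adjusted p = 0.919) includes the neuron values below background.

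Pcdh10, a delta2 gene of axon growth, had 6 tested probe sets. The one with the highest mean, at 567 and 558 in neurons and 398 and 378 in astrocytes, had a difference of 0.52 ± 0.13 on the log2 scale (adjusted p = 0.00730). Another 1 was higher in neurons (1.28), 1 was higher in astrocytes (-0.54) and 3 did not pass. The average was 0.28 (adjusted p = 0.172), and the call for the highest probe set was lost without neurons replicate 1 (0.0511), astrocytes replicate 1 (0.0504) or astrocytes replicate 2 (0.0654). Probe sets called in both directions were found for 2 of the 17 members with more than 1 tested probe set, and for 3.18% of all such genes.

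**Figure D3:**
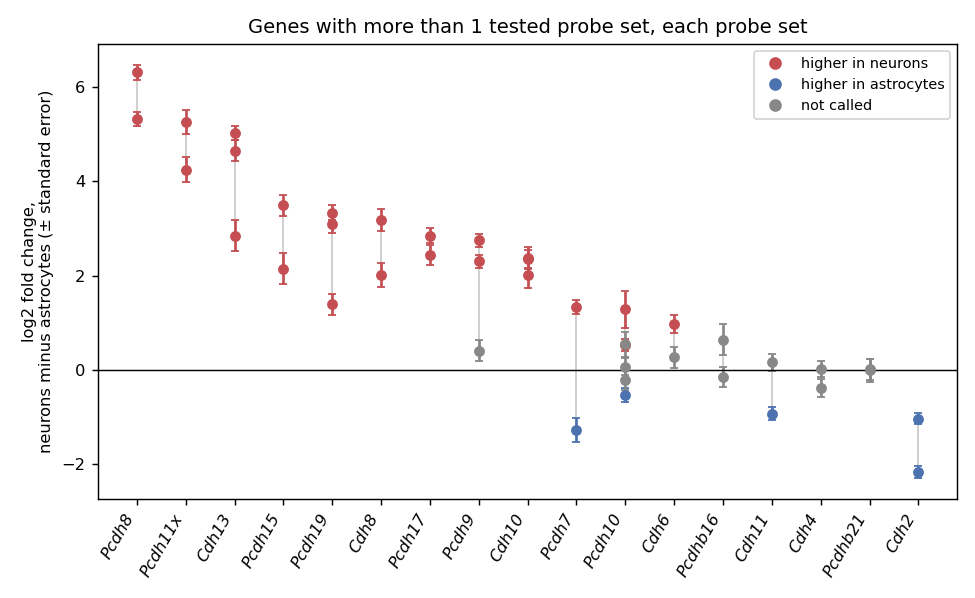
Log2 fold change (neurons minus astrocytes) with its standard error for each tested probe set of the 17 members that have more than 1, coloured by the call. For 12 of the genes all called probe sets share a direction, Pcdh7 and Pcdh10 have both colours, and the probe sets of Cdh4, Pcdhb16 and Pcdhb21 did not pass.

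The beta protocadherins, each encoded by 1 exon in a row of 22 genes, split. Of 12 tested genes 6 were higher in neurons, 1 was higher in astrocytes and 5 did not pass; the other 10 were too dim. Pcdhb9 had 482 and 448 in neurons and 37 and 32 in astrocytes, a 10.2-fold excess (adjusted p = 1.04e-06). Pcdhb7 had 320 and 243 against 18 and 36, a 7.58-fold excess (adjusted p = 2.37e-05). For both, all 4 arrays were above background, Pcdhb7 on astrocytes replicate 1 by a single unit.

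Pcdhb3 had 145 and 184 in neurons and 28 and 29 in astrocytes, a 4.29-fold excess (adjusted p = 4.17e-05). Pcdhb12 and Pcdhb20 were higher in neurons by log2 fold changes of 1.49 and 1.15. Pcdhb10, at 51 and 39 against 8 and 14, was not above background in astrocytes and was at least 2.79-fold higher in neurons, a call that was lost without neurons replicate 1 (adjusted p = 0.0605). In the other direction, Pcdhb22 had 69 and 89 in neurons and 194 and 159 in astrocytes. Its log2 fold change was -1.05 ± 0.20 (adjusted p = 0.00192), and the call was lost without astrocytes replicate 1 (0.0619). Read by the brightest probe set, no other tested protocadherin gene was called in that direction.

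Pcdhb17 had 153 and 213 in neurons and 155 and 133 in astrocytes, with overlapping groups and a log2 fold change of 0.31 ± 0.20 (adjusted p = 0.216). Pcdhb15, Pcdhb16, Pcdhb19 and Pcdhb21 did not pass either, at 1.01, 0.63, 0.14 and 0.01. For Pcdhb15 the astrocyte arrays read 4 and 28, and the gene passed without astrocytes replicate 2 (adjusted p = 0.020), with the replicate number as a block (0.0140) and with an offset 4 times as large (0.0447). For Pcdhb16 they read 117 and 48, and the gene passed without astrocytes replicate 1 (0.0378). The beta genes are closely related paralogs, so a probe set may read more than the gene that it names.

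Along the chromosome, the rank correlation of place and log2 fold change was -0.29 across all 22 beta genes without the brightness filter, with medians of 0.83 for the first 11 and 0.31 for the last 11. Of the tested genes, which could pass the filter through neurons alone, the counts were as follows. From Pcdhb1 to Pcdhb11 in RefSeq order, 4 of the 11 genes were tested and all 4 passed for neurons (median log2 fold change 2.51). From Pcdhb12 to Pcdhb22, 8 of 11 were tested, of which 2 passed for neurons, 1 for astrocytes and 5 for neither (median 0.47). The rank correlation over these 12 alone was -0.90. Both correlations describe paralogs read on the same arrays, and no evenness was tested. The order was looked at after the values were seen.

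**Figure D4:**
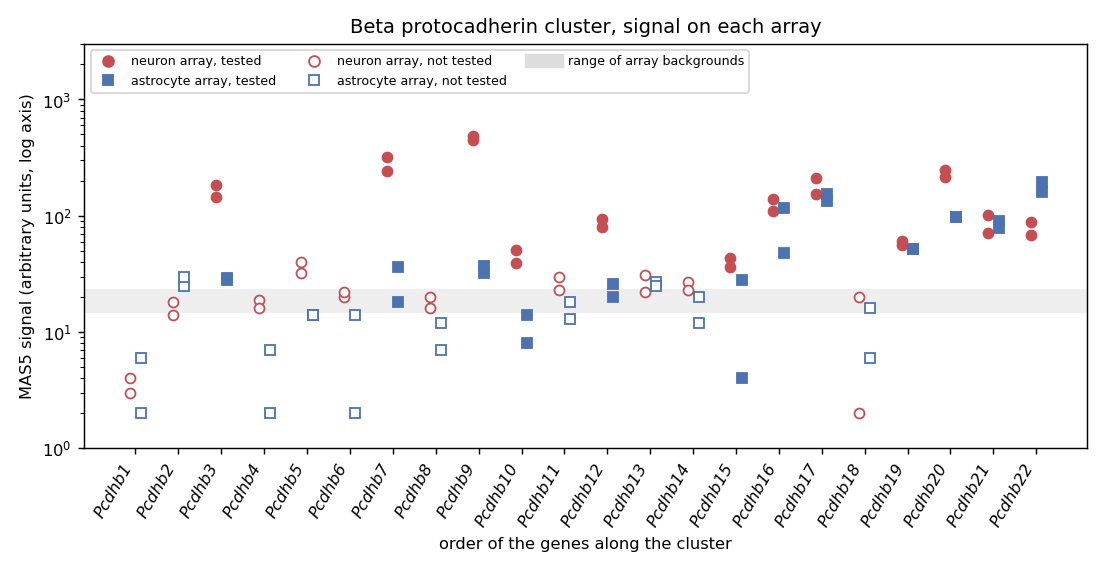
MAS5 signal on each array (log axis, arbitrary units) of the 22 beta protocadherin genes, in their order along the cluster. Circles are neuron arrays and squares astrocyte arrays, open where the gene was too dim to be tested, and the grey band spans the array backgrounds. Pcdhb7 and Pcdhb9, inside the row, show wide gaps. At its end Pcdhb21 overlaps and Pcdhb22 is higher in astrocytes, and at its start Pcdhb1 and Pcdhb2, not tested, show no excess in neurons.

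The alpha cluster, which precedes the beta genes, was read only by probe sets that match several symbols, so these are not members and name no gene. Of 6 such probe sets 3 match 14 alpha symbols each, all of which share their constant 3′ exons. One of the 3 had 2097 and 2190 in neurons and 60 and 36 in astrocytes. Another had 746 and 903 against 42 and 39, and the last 432 and 472 against 20 and 11. The other 3 match 9 symbols each and lay between 22 and 47 in neurons and 10 and 17 in astrocytes, where they were not above background. All 6 were higher on both neuron arrays than on both astrocyte arrays.

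The gamma cluster, which follows the beta genes, had 1 member. Pcdhgc4 had 105 and 72 in neurons and 96 and 129 in astrocytes, with overlapping groups and a log2 fold change of -0.31 ± 0.23 (adjusted p = 0.278). Whether this probe set also reads other gamma genes was not tested. Beside the cluster, Pcdh1 and Pcdh12 were too dim, as was Pcdh18 on another chromosome.

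In all, 23 member genes were not tested, and their probe sets and the dim ones of other members lay between 1 and 55. Of the 56 genes, 14 had no probe set above background on both arrays of either group, among them Cdh1, Cdh3, Cdh16, Cdh17, Cdh18 and Cdh23. Without the brightness filter, Cdh20 (55 and 27 against 7 and 8, adjusted p = 0.0364) and Pcdhb5 (40 and 32 against 14 and 14, 0.0490) were also higher in neurons. That made 23 of 56 genes higher in neurons and 4 in astrocytes, against 18.6% and 18.4% of all 18193 genes. Cdh20, Cdh7 and Cdh19 are close relatives that follow each other among the members on chromosome 1. Of these, Cdh19 was higher in astrocytes and Cdh20 in neurons by that unfiltered fit. On chromosome 8, Cdh8 and Cdh11, the next member in order, likewise differed in direction.

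Genes that work with cadherins were called in both directions, as were all genes tested, at 31.0% for neurons and 31.1% for astrocytes. The count of each list below is to be read beside those shares, and no list was tested as a set. Of 10 tested catenins and junction linkers, 4 were higher in neurons and 6 in astrocytes, with a median log2 fold change of -0.62. The alpha-catenins, which tie the complex to actin, divided by gene. Ctnna2, the neural form, had 683 and 786 in neurons and 280 and 169 in astrocytes (log2 fold change 1.69 ± 0.22, adjusted p = 0.000217), whereas the widely expressed Ctnna1 had 499 and 525 against 5298 and 4840 (-3.28 ± 0.11, adjusted p = 1.85e-07). The Ctnna1 probe set may match several transcripts, and the call for Ctnna2 was lost without neurons replicate 2 (0.0505).

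Vcl, which encodes vinculin, an actin linker of adhesion sites, had 260 and 266 in neurons and 2776 and 2782 in astrocytes, a 10.1-fold excess in astrocytes (adjusted p = 1.85e-07). Ctnnb1, beta-catenin, had 5577 and 5398 against 6344 and 7336 (log2 fold change -0.31, adjusted p = 0.0332), a call lost without astrocytes replicate 2 or either neuron array (0.119 to 0.217). Of 4 tested nectins and afadin, which start junctions beside cadherins, 2 were higher in astrocytes and 2 did not pass. Afdn, the linker of nectins to actin, had 491 and 475 against 630 and 733 (log2 fold change -0.48, adjusted p = 0.0133), lost without astrocytes replicate 2 or either neuron array (0.0848 to 0.106).

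Other members of the cadherin superfamily were mostly higher in neurons, with 9 of 12 tested in that direction and 3 in the other. Clstn2, a calsyntenin of the postsynaptic membrane, had 678 and 728 in neurons and 16 and 12 in astrocytes, at least 44.0-fold higher in neurons (adjusted p = 2.61e-07). Fat1, a giant cadherin of cell polarity, had 653 and 769 against 3735 and 4153, a 5.48-fold excess in astrocytes (adjusted p = 1.08e-06).

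Of 10 tested partners of protocadherin tails, among them the WAVE complex that builds branched actin, 5 were higher in neurons and 1 in astrocytes. Wasf1 had 2868 and 2777 in neurons and 124 and 100 in astrocytes, a 22.9-fold excess in neurons (adjusted p = 1.43e-07), and Wasf2 had 159 and 165 against 575 and 556, a 3.31-fold excess in astrocytes (adjusted p = 1.20e-05). Nckap1, another WAVE subunit, had 4493 and 4338 against 3376 and 3443 (log2 fold change 0.37, adjusted p = 0.0105), lost without astrocytes replicate 1 or either neuron array (0.0504 to 0.0881). The transcripts of Wasf1 and Wasf2 differed in direction, and Wasf3 was too dim to be tested.

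Of 7 tested enzymes that cleave cadherins, 2 were higher in astrocytes and 5 did not pass. Psenen, a subunit of gamma-secretase, had 827 and 877 in neurons and 2203 and 2552 in astrocytes (log2 fold change -1.46 ± 0.12, adjusted p = 1.48e-05). Of 11 tested regulators of clustered protocadherin promoters, 3 were higher in astrocytes and 8 did not pass. Rest, a repressor of neuronal genes, had 67 and 65 in neurons and 254 and 251 in astrocytes (-1.76 ± 0.16, adjusted p = 3.19e-05). The cohesin gene Rad21 had 1118 and 1123 against 1302 and 987 and did not pass (adjusted p = 0.933).

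Of 5 tested repressors of E-cadherin, 2 were higher in astrocytes and 1 in neurons. Twist1 had 8 and 11 in neurons, not above background, and 115 and 116 in astrocytes, at least 5.26-fold higher there (adjusted p = 2.18e-05). Zeb2 had 352 and 399 against 209 and 171 (log2 fold change 0.94 ± 0.16 in favour of neurons, adjusted p = 0.00111). Tcf4 did not pass (adjusted p = 0.159). Cdh1 itself was not above background in either culture.

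**Figure D5:**
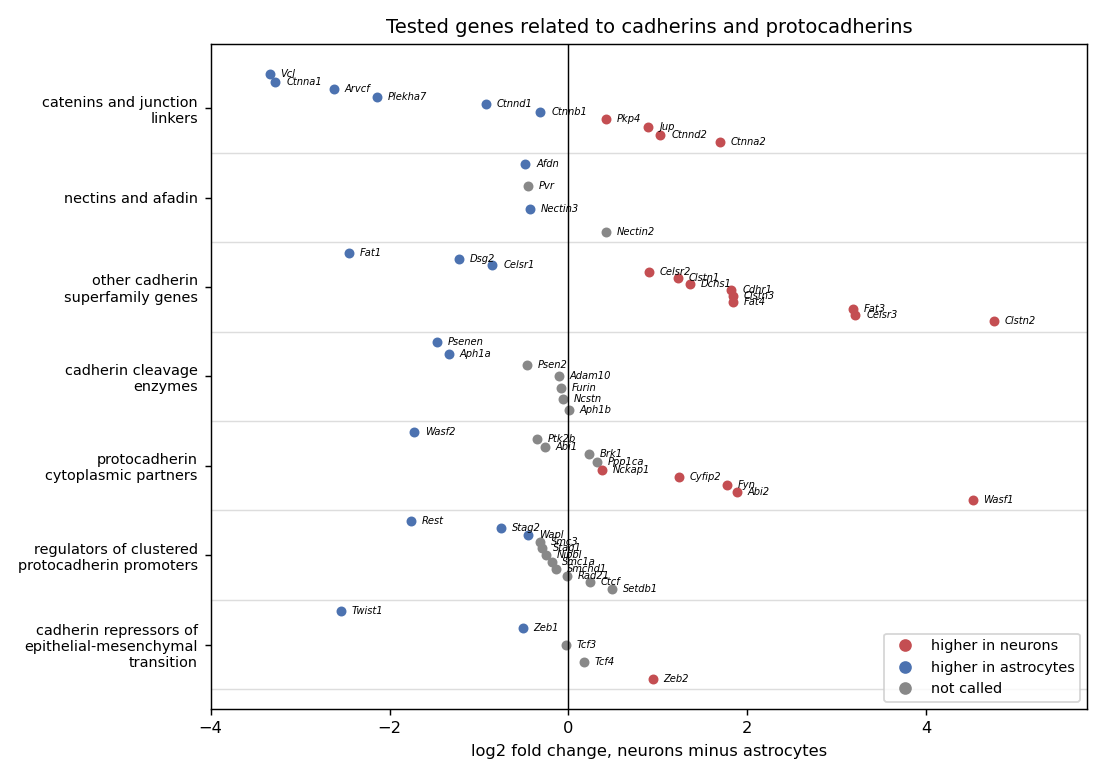
Log2 fold change (neurons minus astrocytes) of the tested genes of the 7 lists of related genes, 1 point per gene, red where higher in neurons, blue where higher in astrocytes and grey where the gene did not pass. Ctnna1 and Vcl lie at the far left and Clstn2 and Wasf1 at the far right, while most regulators of clustered protocadherin promoters lie near 0.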

How the data were processed

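Trizol RNA of 2 neuron and 2 astrocyte cultures, 50 ng each, was taken through 2 cycles of cDNA synthesis into biotinylated cRNA and hybridised, per the labels' protocols. The deposited intensity values are whole-number probe set signals made by the authors with MAS5, as the submitters' processing notes say (version not given in the sources used here). Means trimmed by 2% at each end lay between 149.997 and 150.002. Of 45101 probe sets, 64 controls were left out; 34945 had 1 gene symbol, 932 several and 9160 none, and 34741 were matched to RefSeq by Entrez identifier.

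Values were analysed as log2(value + 12.5), the offset being the median of the arrays' 25th percentiles; fold changes on this scale understate dim genes. Probe sets were tested where at least 2 of 4 arrays reached their array median. Neurons were compared with astrocytes over all 25019 such probe sets with limma 3.58.1 in R 4.3.3 (lmFit, eBayes with trend, 2 residual and 6.27 prior degrees of freedom, two-sided, Benjamini-Hochberg, threshold 0.05). A gene was read by its tested probe set with the highest mean. "At least" folds compare geometric means of signals with the background. The number of arrays limits precision: the median standard error was 0.21 over the members. In simulated data with 25019 probe sets, 67 were changed 2-fold, 67 were changed 4-fold and 66 were changed 8-fold. Of these, 37.3%, 92.5% and 100% were recovered, and 4.97% of calls were false. In the real comparison 29.4% of probe sets were called for neurons and 27.7% for astrocytes. The simulation changed far fewer probe sets, so its rates are not those of the real comparison.

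Values on each array are given for up to 12 called members a direction, those with the largest differences and no overlap between groups (all 4 in astrocytes). They are also given for members called in both directions, the 3 brightest that did not pass, and the largest changes and highest mean of each list of related genes; other genes were named after their values were seen. Members, lists and tests were chosen with earlier results of these data known. Offset, filter, normalization, trend, probe set choice, the replicate block and leaving out each array were varied.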

Additional observations from a re-analysis of the deposited data

How the results depend on the processing

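Of the 14 alternatives run, those that kept all 4 arrays called between 14 and 23 member genes for neurons and 3 or 4 for astrocytes. The shares of all genes ran from 18.6% to 35.2% and from 18.4% to 35.8%. The lowest count of 14 genes came from a filter at the 75th percentile, which left 19 members tested. With 1 array left out, a group held a single array and fewer of all genes were called. A call lost that way may thus reflect the smaller number of arrays. Of 25 called genes, 19 passed in the same direction under every alternative that tested them, 16 of them higher in neurons and 3 in astrocytes. The exceptions were Cdh22, Cdh6, Pcdh10, Pcdh7, Pcdhb10 and Pcdhb22, given with their values above. Without probe sets that may match several transcripts, the fitted log2 fold change of Pcdh8, not above background in astrocytes, was 5.32 in place of 6.31, and Pcdhb15, whose only tested probe set is of that kind, had no value.

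Signs near 0 were not stable, and none of these values passed. The log2 fold change of Cdh4 was -0.052 with median centring, -0.19 with probe sets averaged and -0.20 to 0.23 with 1 array left out. That of Pcdhb21 was -0.071 with quantile normalization, -0.059 with median centring, -0.0051 with probe sets averaged and -0.22 to 0.23 with 1 array left out. That of Rad21 was 0.048 with quantile normalization and -0.21 to 0.18 with 1 array left out.

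The replicate numbers of the titles name no shared animal, and the main fit did not pair the arrays by them. The deviations of arrays with the same number correlated at -0.09 across probe sets. With 2 arrays per group, that value cannot show whether arrays of the same number shared a preparation. A fit with the replicate number as a block called 22 members higher in neurons and 4 in astrocytes; besides Pcdhb15 (adjusted p = 0.0140) it changed no call of a member. No CEL files were used here, so background correction could not be varied. Signals near the background of 15 to 23 limit what can be said of dim members.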
